A study of Mus musculus with 12 samples.

Results

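The genes described here are 7 markers of B cells and plasma cells, Cd79a, Cd79b, Ms4a1, Cd22, Jchain, Mzb1 and Blk, among 21936 genes measured by RNA sequencing of whole mouse liver. They were taken by gene name, and each name stood on 1 entry of the table. The livers came from male mice, strain C57BL/6 in the labels and C57BL/6J in the study's methods, in 3 groups with 3 libraries each. All groups had been injected intraperitoneally with carbon tetrachloride (CCl4), a hepatotoxin that causes fibrosis. The dose was 1 mL/kg, given 2 times a week over 8 weeks to mice that had arrived at an age of 6 weeks. The liver fibrosis group (LFG) was killed at the end of these injections. In the regression group (REG), the tail vein was then injected with 200 µL of phosphate-buffered saline 2 times a week over 4 weeks. The hADMSCs-Exo group was given 250 µg of exosome protein in the same volume, by the same route and schedule. hADMSCs-Exo are small vesicles released by cultured human adipose mesenchymal stem cells. The livers of LFG were thus taken earlier than those of the other groups, so that treatment, time since the last CCl4 dose and age cannot be told apart in any comparison with LFG. No liver without CCl4 was among the libraries used, and the 3 hADMSCs samples were not analysed here.

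B cells sense antigen through the B cell receptor, a membrane immunoglobulin held in a complex with the signaling chains encoded by Cd79a and Cd79b. Src family kinases such as the product of Blk phosphorylate these chains, and the inhibitory receptor CD22 limits the signal. After activation, B cells can become plasma cells, which take down much of their receptor program and secrete antibody. The J chain joins immunoglobulin into polymers, and the endoplasmic reticulum protein encoded by Mzb1 assists antibody assembly. In the liver, B cells lie among other leukocytes of the sinusoids, portal tracts and inflamed areas.

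The table gives positions on GRCm38. Cd79a (ENSMUSG00000003379) lies on chromosome 7 from 24897381 to 24902197 on the plus strand. Cd22 (ENSMUSG00000030577) is on the same chromosome, from 30865402 to 30880342, on the minus strand, as are the other members. Cd79b (ENSMUSG00000040592) lies on chromosome 11 from 106311341 to 106314762, and Ms4a1 (ENSMUSG00000024673) on chromosome 19 from 11249675 to 11266241. Jchain (ENSMUSG00000067149) lies on chromosome 5 from 88519809 to 88527891, and Blk (ENSMUSG00000014453) on chromosome 14 from 63372836 to 63417037. The GENCODE annotation lists all 7 as protein coding with these same ends. The use of strand in counting is not given in the sources used here. An antisense gene shares 479 exonic bases with Cd22, and a gene on the same strand shares 695 exonic bases with Mzb1, so that their counts are uncertain.

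RefSeq promoters (GRCm38.p6) were at hand for 3 of the 7 genes, Cd79a, Cd22 and Jchain. The stretches before Cd79a and Jchain are shown because these genes had, respectively, the largest difference between groups and the highest level among the members. The first is chr7:24897247-24897380 on the plus strand, 134 bases that end just before the listed gene. The second is chr5:88527898-88528147 on the minus strand, the 250 bases before the RefSeq start. Both are written 5′ to 3′, and the capitals mark a match to the core recognised by the factor PU.1.
Cd79a: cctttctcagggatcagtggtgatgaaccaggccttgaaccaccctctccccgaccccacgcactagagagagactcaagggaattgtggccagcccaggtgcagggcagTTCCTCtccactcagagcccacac
Jchain: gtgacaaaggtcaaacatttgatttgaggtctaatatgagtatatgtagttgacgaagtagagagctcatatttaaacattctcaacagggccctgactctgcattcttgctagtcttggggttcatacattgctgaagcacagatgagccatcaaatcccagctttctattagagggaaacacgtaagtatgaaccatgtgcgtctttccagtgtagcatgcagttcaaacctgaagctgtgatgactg
Windows of 250 bases before to 50 bases after each start were searched on both strands for the octamer ATTTGCAT of OCT factors, the EBF core CCCNNGGG and the PU.1 core GAGGAA. The octamer was in none of the 3 windows and in 1.74% of all 32851 promoters. The EBF core was in the window of Cd22, 48 bases before its start, and in 13.7% of all promoters. The PU.1 core was in the window of Cd79a, on the other strand and 140 bases before the RefSeq start at 24897497, which lies inside the gene as the table lists it, and in 28.3% of all promoters. These are matches of letters, and binding was not measured.

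Total counts per library lay between 13837445 and 19840917. Albumin was the most abundant gene of the hepatocyte list, with a mean of 108650 CPM, which is the count scaled to a fixed library total. LFG replicate 3 stood apart from the other libraries. It had the fewest detected genes (13924, against 14539 to 15248) and a summed level of 6 general leukocyte genes of 25.9 CPM, against 78.2 to 280 CPM elsewhere. The matrix gene Col1a1, a marker of fibrosis, had 30 counts in it, against 6147 and 2281 in LFG replicates 1 and 2, 300 to 515 in REG and 97 to 209 in hADMSCs-Exo, so that this library, labelled as fibrosis, had the lowest level of that marker. Fold changes, medians and counts of calls against LFG are therefore also given without it. That the libraries of a group came from separate animals is not stated in the labels, and p-values measure the spread between these libraries. In bulk liver RNA, fewer B cells and less RNA per B cell cannot be told apart.

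All members were low in liver. By FPKM, which scales counts by gene length and library total, Jchain was the highest with a mean over all libraries of 7.44, followed by Cd79b at 1.42, Cd79a at 1.32, Cd22 at 0.798, Blk at 0.255, Mzb1 at 0.117 and Ms4a1 at 0.115. Each gene's range over the libraries overlapped that of its neighbour in this order. The total over all 9 libraries was 2938 counts for Jchain, 625 for Cd22, 317 for Cd79b, 301 for Cd79a, 109 for Ms4a1, 106 for Blk and 21 for Mzb1. Counting error is large at these numbers. The exact Poisson interval of 95% around the 5 counts of Cd79a in LFG replicate 3 ran from 1.62 to 11.7 counts, and it covers counting error and not differences between animals.

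Cd79a, a signaling chain of the B cell receptor, was lower in LFG than in both later groups. LFG replicates 1, 2 and 3 had 20, 10 and 5 counts, or 0.841, 0.554 and 0.443 CPM after TMM normalization. REG had 63, 60 and 19 counts, or 3.88, 3.31 and 1.01 CPM, and hADMSCs-Exo had 28, 53 and 43 counts, or 1.66, 3.19 and 2.72 CPM. By TMM-normalized CPM, every library of LFG was thus below every library of the other groups, the nearest being REG replicate 3. The TMM factors were 1.38, 1.10 and 0.815 in LFG replicates 1, 2 and 3 and 0.919 to 1.02 elsewhere. By FPKM, which does not use these factors, LFG replicate 1 (0.795) was above REG replicate 3 (0.657). The hADMSCs-Exo libraries stayed above LFG by FPKM, at 1.17 or more. Against LFG, the fitted level was 3.95-fold in hADMSCs-Exo (log2 fold change 1.98 ± 0.49 SE, n = 3 per group) and 4.35-fold in REG (2.12 ± 0.62). By edgeR's quasi-likelihood test, the unadjusted p was 0.00514 and 0.0115, and neither passed Benjamini-Hochberg adjustment over all genes (adjusted p = 0.805 and 0.354). With 5 counts in LFG replicate 3, Cd79a could pass the filter on low counts only with libraries of the later groups, where it was higher. The two-sided exact permutation test of 3 against 3 libraries gave p = 0.1 in both, the smallest this design allows.

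The difference in Cd79a remained without LFG replicate 3. The log2 fold change of Cd79a was then 1.83 in hADMSCs-Exo and 1.98 in REG against LFG, with adjusted p = 0.0676 and 0.0702 by edgeR. Over 12 alternative settings, the value for hADMSCs-Exo lay between 1.79 and 2.29 and that for REG between 1.82 and 2.55. The unadjusted p stayed under 0.05 in all 12 for each comparison. The adjusted p ranged from 0.0501 (DESeq2) to 1.00 for hADMSCs-Exo and from 0.0652 (DESeq2) to 0.928 for REG. Between hADMSCs-Exo and REG, Cd79a differed by a log2 fold change of -0.11 ± 0.50 (edgeR, adjusted p = 0.955).

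Cd79b, the partner chain of Cd79a, had smaller fold changes against LFG, and the difference between the genes was not tested. It had 37, 31 and 11 counts in LFG, or 1.56, 1.72 and 0.976 CPM. REG had 41, 67 and 18 counts, or 2.53, 3.70 and 0.959 CPM, and hADMSCs-Exo had 32, 34 and 46 counts, or 1.90, 2.05 and 2.91 CPM. The hADMSCs-Exo libraries were all above those of LFG, whereas REG replicate 3 was the lowest of the 9 libraries. The log2 fold change against LFG was 0.65 ± 0.43 in hADMSCs-Exo (edgeR, adjusted p = 0.854) and 0.74 ± 0.57 in REG (adjusted p = 0.634).

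**Figure D1:**
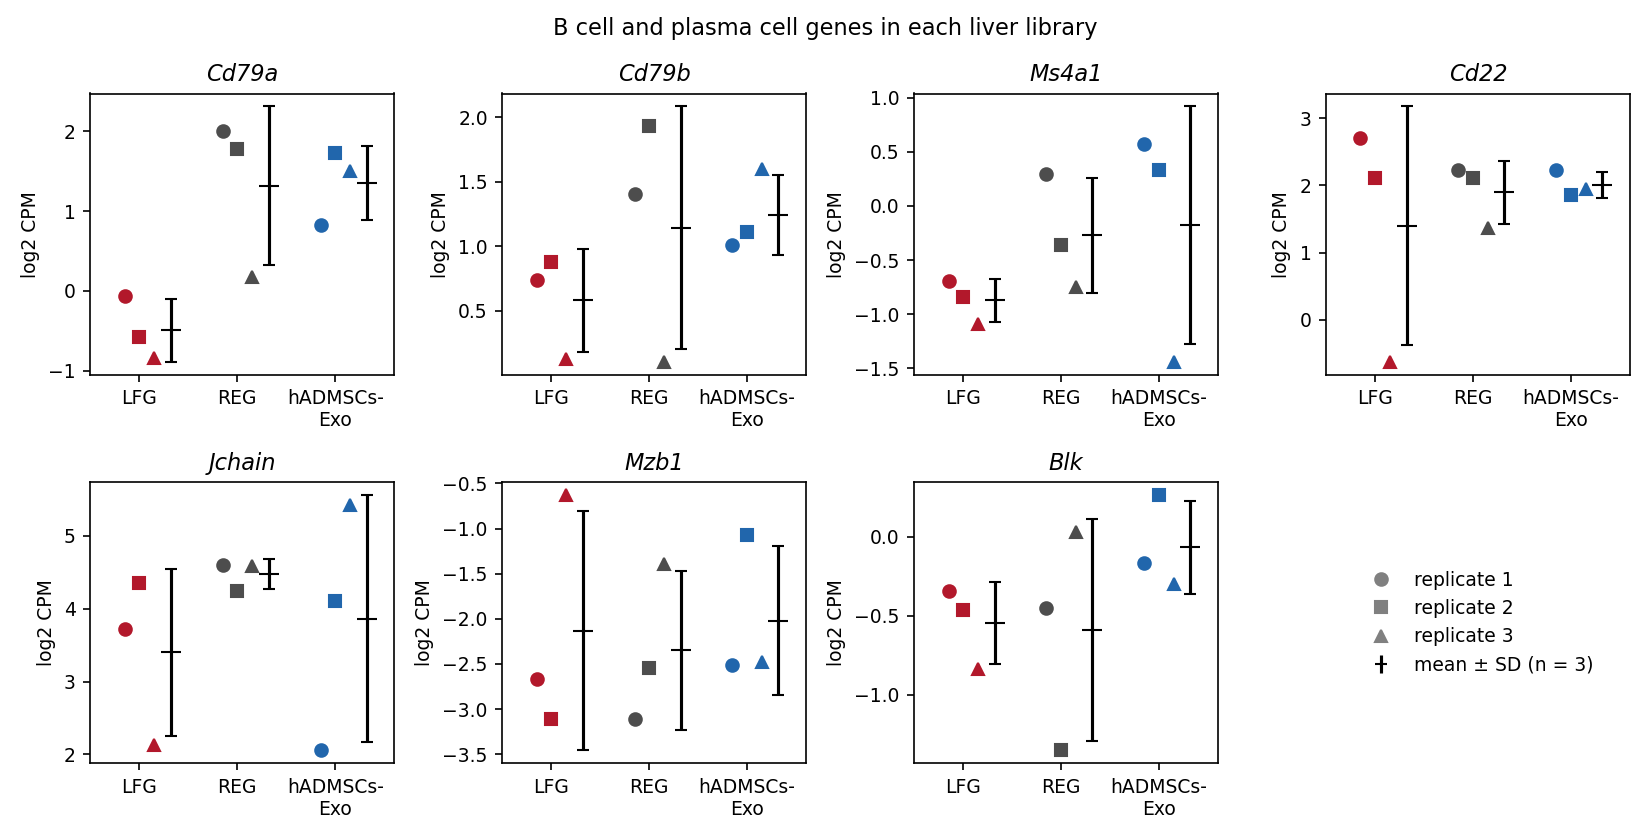
Log2 CPM (vertical axes, prior count of 2, a scale for each gene) of the 7 genes in the LFG, REG and hADMSCs-Exo libraries; symbols are replicates and bars are the mean ± SD of 3. Cd79a lies between -0.84 and -0.06 in LFG and at 0.17 or above in the other 6 libraries, while Jchain spans 2.06 to 5.43 within hADMSCs-Exo.

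Blk, a kinase of the Src family found mainly in B cells, was counted 5 to 18 times per library. LFG had 0.673, 0.610 and 0.443 CPM, REG had 0.616, 0.276 and 0.906 CPM, and hADMSCs-Exo had 0.773, 1.08 and 0.696 CPM. By CPM, the hADMSCs-Exo libraries lay above those of LFG, and REG reached below LFG and overlapped both groups. By FPKM, LFG replicate 1 (0.344) was above hADMSCs-Exo replicates 1 and 3 (0.293 and 0.240). The log2 fold change was 0.52 ± 0.50 for hADMSCs-Exo against LFG, 0.05 ± 0.61 for REG against LFG and 0.50 ± 0.52 for hADMSCs-Exo against REG, with adjusted p by edgeR of 0.899, 0.985 and 0.765.

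Ms4a1, which encodes the B cell surface protein CD20, was counted 12, 8 and 4 times in LFG, 18, 12 and 9 times in REG and 23, 19 and 4 times in hADMSCs-Exo. The lowest value, 0.253 CPM, and the highest, 1.37 CPM, were both in hADMSCs-Exo, so that this group enclosed the others. Against LFG, the log2 fold change was 1.04 ± 0.71 in hADMSCs-Exo (edgeR, adjusted p = 0.859) and 0.76 ± 0.56 in REG (adjusted p = 0.629). Between hADMSCs-Exo and REG it was 0.31 ± 0.63 (adjusted p = 0.888).

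Cd22, the inhibitory receptor, varied most within LFG. LFG replicates 1, 2 and 3 had 153, 76 and 6 counts, or 6.43, 4.21 and 0.532 CPM, so that both the highest and the lowest of the 9 libraries were in LFG. REG had 4.56, 4.19 and 2.45 CPM, and hADMSCs-Exo had 4.58, 3.50 and 3.73 CPM. The highest LFG library was 12.1 times the lowest, against 1.31 times in hADMSCs-Exo. The log2 fold change from LFG was 0.03 ± 0.74 for hADMSCs-Exo and -0.01 ± 0.75 for REG (edgeR, adjusted p = 0.997 in both). Without LFG replicate 3 these values were -0.44 and -0.48, with adjusted p = 0.383 and 0.363.

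Jchain, which marks antibody-secreting cells, had its largest spread in hADMSCs-Exo. LFG had 311, 367 and 48 counts, or 13.1, 20.3 and 4.26 CPM. REG had 392, 341 and 448 counts, or 24.1, 18.8 and 23.9 CPM, and hADMSCs-Exo had 68, 285 and 678 counts, or 4.04, 17.2 and 42.9 CPM. REG was tight, with a highest to lowest ratio of 1.28, while in hADMSCs-Exo the ratio was 10.6, and replicates 1 and 3 of that group were the lowest and the highest of all 9 libraries. The log2 fold change was 0.73 ± 0.85 for hADMSCs-Exo against LFG (edgeR, adjusted p = 0.920), 0.83 ± 0.50 for REG against LFG (adjusted p = 0.560) and -0.06 ± 0.64 for hADMSCs-Exo against REG (adjusted p = 0.983).

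Mzb1 (ENSMUSG00000024353, chromosome 18 from 35647267 to 35649367, minus strand) did not pass the filter on low counts in any comparison. It had 1, 0 and 6 counts in LFG, 0, 1 and 5 in REG and 1, 6 and 1 in hADMSCs-Exo. The counts of 0 allow up to 0.182 CPM in LFG replicate 2 and 0.180 CPM in REG replicate 1, taking 3 counts as the limit. These limits are scaled by the library total alone, without the TMM factors used for the other CPM values. A difference between groups was not detectable at this depth.

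The 3 comparisons asked what changed after the end of CCl4 dosing, with saline or with exosomes, and what exosomes changed beside saline. In each, 6 of the 7 members could be tested. A gene was called at an adjusted p under 0.05 with an log2 fold change of 1 or more in either direction. No member was called by edgeR, and none by DESeq2 or by limma with voom. In hADMSCs-Exo against REG, 0.00811% of all tested genes were called, while 0% were called in hADMSCs-Exo against LFG and 0% in REG against LFG. At an unadjusted p under 0.05, the members gave 0, 1 and 1 genes in these comparisons, Cd79a being the gene in both cases, where 10.0%, 5.98% and 11.3% of all tested genes passed. Overlap of groups was judged by log2 CPM with TMM. Groups did not overlap for 0 members in hADMSCs-Exo against REG, for 3 (Cd79a, Cd79b and Blk, all higher) in hADMSCs-Exo against LFG and for 1 (Cd79a, higher) in REG against LFG, beside 15.5%, 12.3% and 18.9% of all tested genes. By FPKM, Cd79b and Blk overlapped in hADMSCs-Exo against LFG, and Cd79a overlapped in REG against LFG.

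The median log2 fold change of the members was 0.01 in hADMSCs-Exo against REG, where it was 0.01 over all genes, and lay between -0.089 and 0.25 with 1 library left out. Against LFG it was 0.69 in hADMSCs-Exo and 0.75 in REG, with medians of -0.06 and -0.07 over all genes. In hADMSCs-Exo, 6 of 6 tested members were fitted above LFG, and in REG 5 of 6, where 43.1% and 44.1% of all genes were. Without LFG replicate 3 the medians of the members were 0.44 and 0.52, with medians of 0.004 and -0.005 over all genes, and 5 of 6 and 4 of 6 members were fitted above LFG. The values without that library were 0.48 and 0.58 for Cd79b, 0.95 and 0.67 for Ms4a1, 0.37 and 0.45 for Jchain, 0.40 and -0.07 for Blk and -0.44 and -0.48 for Cd22, in hADMSCs-Exo and in REG against LFG. In these fits without that library, 5.97% and 10.7% of all genes were called, and 28.5% and 37.3% had an unadjusted p under 0.05, and again no member was called. By log2 CPM, groups did not overlap for the same 3 members in hADMSCs-Exo and for Cd79a in REG. Of all genes, 48.8% and 55.4% did not overlap with the 2 remaining LFG libraries. The comparisons with LFG share its libraries and are not independent of each other.

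**Figure D2:**
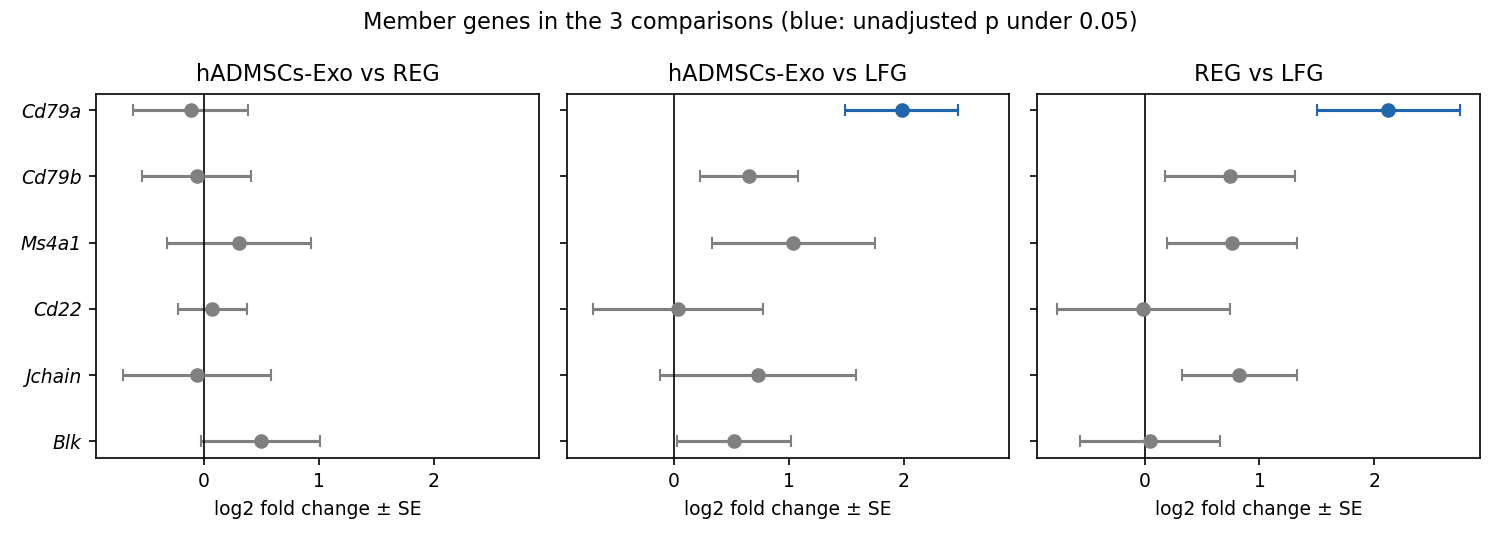
Log2 fold change ± SE (horizontal axes) from edgeR for the 6 tested genes in the 3 comparisons, 3 libraries per group; blue marks an unadjusted p under 0.05. Cd79a stands at 1.98 and 2.12 in the comparisons with LFG and at -0.11 between hADMSCs-Exo and REG.

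Ratios taken within a library do not depend on its normalization. The FPKM of Cd79a divided by that of Cd79b was 0.531, 0.317 and 0.446 in LFG, 1.51, 0.880 and 1.04 in REG and 0.859, 1.53 and 0.918 in hADMSCs-Exo. The LFG libraries, replicate 3 included, lay below the other 6, from counts as low as 5 for Cd79a and 11 for Cd79b. Set against Ptprc, which encodes the leukocyte antigen CD45, Cd79a had 1.48, 0.951 and 6.76 counts per 100 Ptprc counts in LFG, 14.3, 20.9 and 6.01 in REG and 6.57, 8.14 and 11.3 in hADMSCs-Exo. Here LFG replicate 3 lay among the other groups, and LFG replicates 1 and 2 were the lowest. The FPKM of Jchain divided by that of Cd79a was 9.0, 21.2 and 5.56 in LFG, 3.6, 3.29 and 13.6 in REG and 1.41, 3.11 and 9.13 in hADMSCs-Exo, and the groups overlapped. These ratios were chosen after values had been seen and carry no test.

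**Figure D3:**
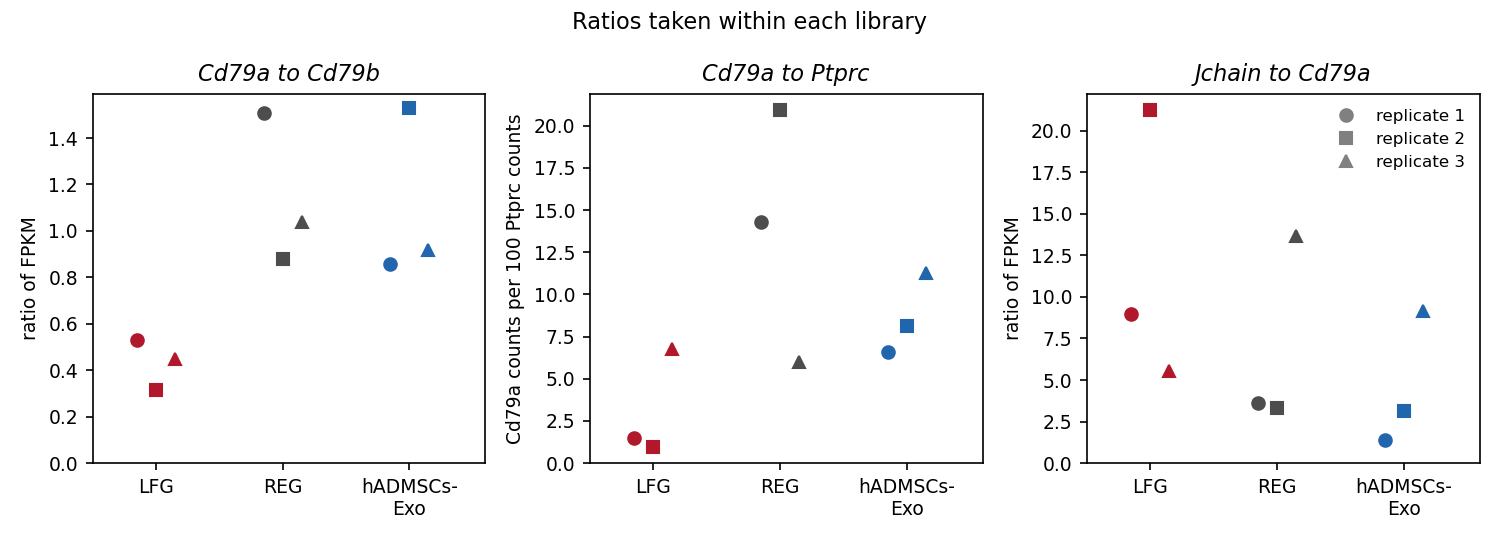
Ratio of Cd79a to Cd79b FPKM, Cd79a counts per 100 Ptprc counts, and ratio of Jchain to Cd79a FPKM (vertical axes from 0) in each LFG, REG and hADMSCs-Exo library; symbols are replicates. The first ratio is at most 0.531 in LFG and at least 0.859 elsewhere, and the other ratios overlap between groups.

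Most other genes of the B cell receptor pathway had fitted levels below LFG, where Cd79a was above it. Of 16 co-receptor and signaling genes, 4 were fitted higher and 12 lower in hADMSCs-Exo than in LFG (median -0.40), and 4 higher and 12 lower in REG than in LFG (median -0.61). In hADMSCs-Exo against REG, 14 were higher and 2 lower (median 0.19). None was called with all libraries. Without LFG replicate 3, the medians against LFG were -0.79 and -1.04, and some genes were called, all lower. These were Cd72 and Syk in hADMSCs-Exo (-1.20 and -1.10, edgeR, adjusted p = 0.0259 and 0.0266) and Cr2, Syk, Blnk and Pik3ap1 in REG (-3.89, -1.78, -1.38 and -1.20, adjusted p = 0.0151, 0.0181, 0.0371 and 0.0159). Cd72 encodes an inhibitory receptor of B cells, and Syk the kinase that binds the phosphorylated receptor chains. The most abundant by FPKM was Cd81 (mean 40.8), a tetraspanin that many cell types express.

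Those of the list with an unadjusted p under 0.05 by edgeR were lower in REG against LFG and higher in hADMSCs-Exo against REG. Cr2, the complement receptor CD21, had 774, 225 and 5 counts in LFG, 43, 21 and 13 in REG and 357, 8 and 4 in hADMSCs-Exo, a wide spread within LFG and hADMSCs-Exo, with a log2 fold change of -3.33 for REG against LFG (edgeR, adjusted p = 0.409). The adaptors Blnk and Pik3ap1 had -1.19 and -1.04 in that comparison (adjusted p = 0.388 and 0.312). The kinases Syk and Prkcb, which other leukocytes also use, had 0.71 and 0.98 in hADMSCs-Exo against REG (adjusted p = 0.485 and 0.428).

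Among 19 transcription factor and surface identity genes, 13 could be tested between hADMSCs-Exo and REG (10 higher and 3 lower, median 0.46). In each comparison with LFG 10 could be tested, with 8 higher and 2 lower in hADMSCs-Exo (median 0.71) and 5 higher and 5 lower in REG (median -0.04). None was called with all libraries. With LFG replicate 3 left out, 10 of 13 were higher in hADMSCs-Exo (median 0.38) and 4 of 11 in REG (median -0.31), and Ly6d was called as lower in REG. Pax5, the factor that maintains B cell identity, had 2, 6 and 4 counts in LFG, 14, 10 and 11 in REG and 17, 20 and 11 in hADMSCs-Exo. Its log2 fold change was 1.94 in hADMSCs-Exo against LFG (edgeR, adjusted p = 0.805), or 2.25 without LFG replicate 3 (adjusted p = 0.0989), and it did not pass the filter in REG against LFG. At these counts it passed the filter through the libraries in which it was higher. H2-Ob, which modulates class II antigen loading in B cells, had 1.34 in hADMSCs-Exo against LFG (adjusted p = 0.805), or 1.13 without that library (adjusted p = 0.179). Pou2f2, an octamer-binding factor, and Cd40, the receptor for T cell help, had 0.87 and 1.06 in hADMSCs-Exo against REG (adjusted p = 0.411 and 0.488). Ly6d, the most abundant of the list (mean FPKM 44.5), had 4041, 415 and 5 counts in LFG, and its value of -3.77 in REG against LFG (edgeR, adjusted p = 0.435) became -4.33 without LFG replicate 3 (adjusted p = 0.0178).

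Of 14 plasma cell and antibody secretion genes, 13 were tested in each comparison and none was called with all libraries. In hADMSCs-Exo against REG 7 were higher and 6 lower (median 0.16), in hADMSCs-Exo against LFG 6 were higher and 7 lower (median -0.003), and in REG against LFG 7 were higher and 6 lower (median 0.08). The lowest p among them belonged to Creld2, a chaperone gene of the endoplasmic reticulum that is not specific to plasma cells, with a log2 fold change of -1.74 in hADMSCs-Exo (edgeR, adjusted p = 0.805) and -2.06 in REG (adjusted p = 0.230) against LFG. It was called as lower in both without LFG replicate 3 (-1.69 and -2.0, adjusted p = 0.0306 and 0.0107), and the medians of the list were 0.17 and 0.03. Fkbp11 had -1.21 in hADMSCs-Exo against LFG (adjusted p = 0.805), and -0.52 without that library (adjusted p = 0.302). Xbp1, a factor needed for secretion that hepatocytes also express, was the most abundant by FPKM (mean 79.8) and had 0.60 in REG against LFG (adjusted p = 0.430), or 0.82 without that library (adjusted p = 0.0307), under the limit on fold change. Of 14 immunoglobulin chain genes listed, only the surrogate light chain genes Igll1 and Vpreb1 stood in the table, at no more than 3 counts per library, and the others were not analysed here.

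Of 9 genes for B cell ligands, chemokines and antibody transport, 4, 5 and 4 were tested in hADMSCs-Exo against REG, hADMSCs-Exo against LFG and REG against LFG, with 2, 4 and 4 of them higher and medians of 0.002, 0.47 and 0.38. Leaving out LFG replicate 3 gave medians against LFG of 0.56 in hADMSCs-Exo and -0.02 in REG. None was called with or without it. Cxcl13, the chemokine that draws B cells through CXCR5, had 29, 223 and 7 counts in LFG, 173, 81 and 32 in REG and 155, 656 and 685 in hADMSCs-Exo. Its log2 fold change in hADMSCs-Exo against REG was 2.45 (edgeR, adjusted p = 0.407), with overlap of replicate 1 of both groups. Pigr, the receptor that carries J chain-linked antibody across epithelia and is made by liver epithelial cells, had the highest level of the list (mean FPKM 302).

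Most tested markers of T cells, NK cells and neutrophils were fitted above LFG in both later groups, as most members were, and above REG in hADMSCs-Exo, where the median of the members was 0.01. Their part in the differences of the members was not tested. Of the 11 T cell genes tested between hADMSCs-Exo and LFG, 11 were higher (median 1.00), and of those tested in the other comparisons 10 of 10 were higher in hADMSCs-Exo than in REG (median 0.71) and 10 of 10 in REG than in LFG (median 0.37). Their summed level was 4.52 to 24.5 CPM in LFG, 14.5 to 24.6 CPM in REG and 26.5 to 34.5 CPM in hADMSCs-Exo, Cd8a being the most abundant. NK cell genes summed to 2.93 to 13.5 CPM in LFG, 10.4 to 26.4 CPM in REG and 17.6 to 26.2 CPM in hADMSCs-Exo, led by Gzma, with 5 of 5, 4 of 4 and 4 of 5 tested genes higher in hADMSCs-Exo against LFG, REG against LFG and hADMSCs-Exo against REG. Neutrophil genes, led by S100a9, summed to 7.01 to 11.7 CPM, 6.50 to 42.7 CPM and 22.6 to 41.3 CPM in the 3 groups. All 4 tested neutrophil genes had an unadjusted p under 0.05 in hADMSCs-Exo against LFG (median 1.94), and 3 of 3 were higher in REG against LFG and 4 of 4 in hADMSCs-Exo against REG. Without LFG replicate 3 the medians in hADMSCs-Exo and in REG against LFG were 0.63 and 0.01 for T cell genes, 0.68 and 0.47 for NK cell genes and 1.82 and 1.02 for neutrophil genes. T cell genes were then 11 of 11 higher in hADMSCs-Exo but 5 of 10 in REG, and S100a8 and S100a9 were called as higher in hADMSCs-Exo.

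General leukocyte and macrophage genes had medians of the other sign against LFG. The general leukocyte genes, led by Laptm5, had medians of -0.49 in hADMSCs-Exo and -0.30 in REG against LFG and 0.25 in hADMSCs-Exo against REG. Macrophage genes, led by Cd5l, summed to 147 to 1560 CPM in LFG, 485 to 1369 CPM in REG and 865 to 991 CPM in hADMSCs-Exo, with medians of -0.22, -0.28 and 0.20 in the same order. Markers of plasmacytoid dendritic cells, which share some genes with B cells, summed to 0.213 to 2.23 CPM, and none could be tested with all libraries. No gene of these leukocyte lists was called with all libraries. Without LFG replicate 3 the medians in hADMSCs-Exo and in REG were -0.98 and -0.79 for general leukocyte genes and -0.73 and -0.78 for macrophage genes. Laptm5 and Adgre1 in hADMSCs-Exo and Ptprc and Ccr2 in REG were then called, all lower. Of the plasmacytoid dendritic cell markers, 1 and 2 could then be tested, and none was called.

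**Figure D4:**
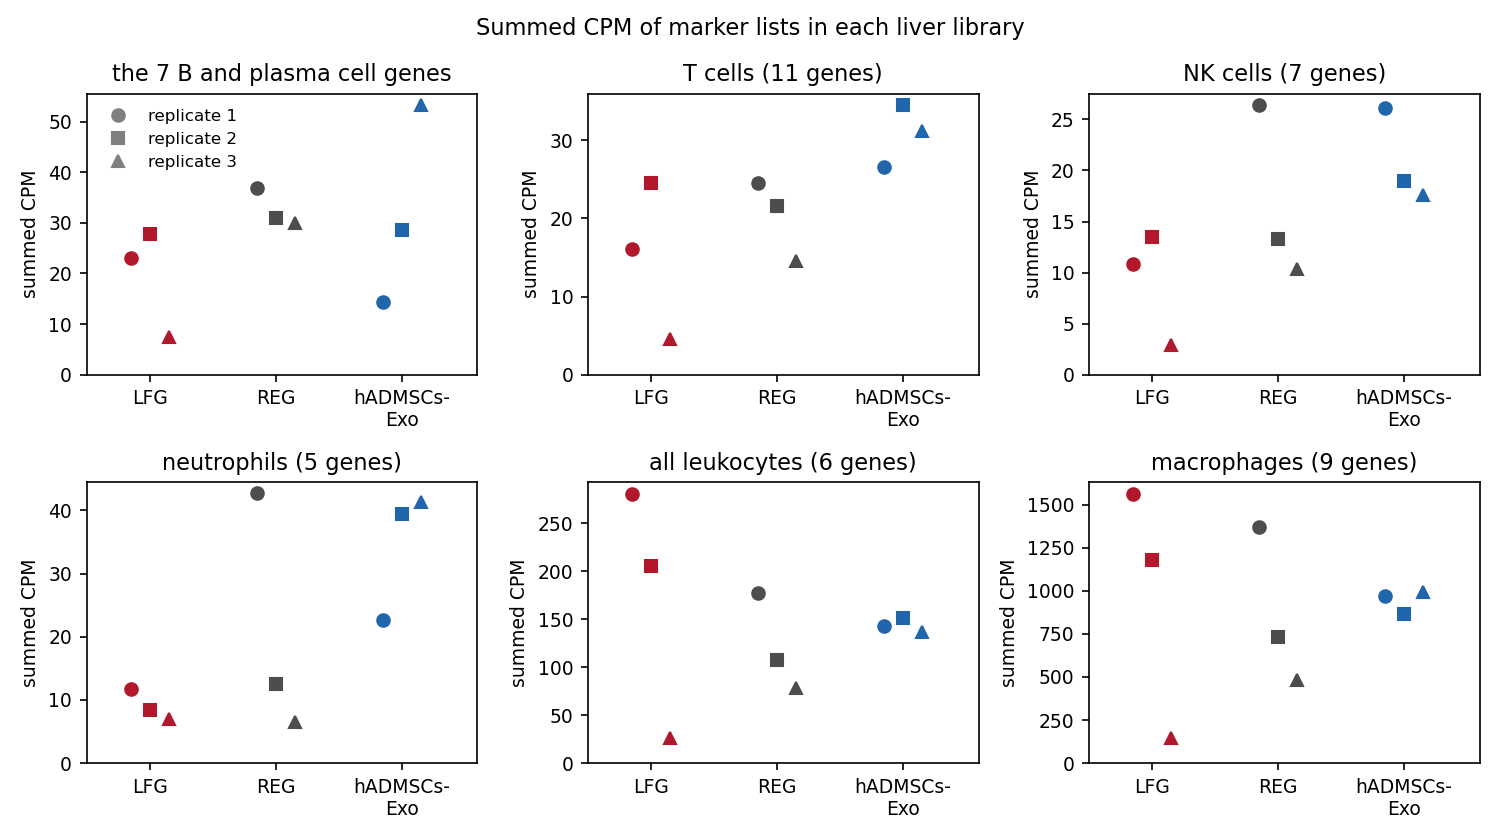
Summed CPM (vertical axes from 0) of the 7 B cell and plasma cell genes and of 5 lists of other leukocyte markers in each library; symbols are replicates. The T cell sum is 26.5 to 34.5 CPM in hADMSCs-Exo and 4.52 to 24.5 CPM in LFG, and LFG replicate 3 is the lowest library for the leukocyte and macrophage sums.

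The remaining lists describe the liver in which the members were measured. Hepatocyte genes summed to 81156 to 143319 CPM in LFG, 159656 to 167791 CPM in REG and 114611 to 131503 CPM in hADMSCs-Exo, with medians of -0.03 (hADMSCs-Exo against LFG), 0.05 (REG against LFG) and -0.18 (hADMSCs-Exo against REG). Red blood cell genes, led by Hbb-bs, had medians of 0.76, 1.70 and -0.72 in this order. Stellate cell and matrix genes, led by Dcn, had -3.26, -0.63 and -1.19, and genes of dividing cells, led by Mki67, had -2.82, -2.83 and 0.18. No gene of these lists was called with all libraries. In LFG replicates 1, 2 and 3 the stellate cell and matrix genes summed to 1081, 724 and 50.1 CPM and the genes of dividing cells to 185, 52.4 and 3.55 CPM, so that replicate 3 lay below every other library in both. Without it, the medians in hADMSCs-Exo and in REG against LFG were -3.78 and -1.15 for stellate cell and matrix genes, -3.34 and -3.38 for dividing cells, 0.54 and 1.35 for red blood cells and 0.21 and 0.41 for hepatocytes. Called were then 3 and 2 matrix genes and 4 and 4 genes of dividing cells, all lower, and Alas2 as higher in REG.

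The pattern of the members over the libraries was summarised as the mean of their standardised log2 CPM. Among 12754 other genes that passed the filter over 9 libraries, the 10 with the highest Pearson correlation with this mean had r from 0.909 to 0.941. They were Dtx1, Zfp867, Tctn2, Adamdec1, Tbx21, Apol10b, Wrn, Cd2, Serpina3m and H2-DMb2, and 14 genes exceeded 0.9. The points share libraries, and the ranking is a description over 9 libraries from 3 groups.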

How the data were processed

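Liver RNA of 9 libraries was analysed (LFG, REG and hADMSCs-Exo, 3 each), grouped by the labels. The submitters' processing notes name cutadapt 1.15, HISAT2 2.0.5, HTSeq 0.9.1, DESeq 1.30.0 and GRCm38. The authors deposited raw read counts per gene, and FPKM, which equals those counts scaled by the deposited gene length and the library total (relative difference of at most 9.19e-07). Columns named MSC_E were read as hADMSCs-Exo.

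Counts were tested by edgeR 4.0.16 in R 4.3.3 (quasi-likelihood, two-sided, TMM, its filter on low counts, the 6 libraries of each comparison) with Benjamini-Hochberg adjustment over all genes tested. Log2 CPM used a prior count of 2. Python 3.11.15 with scipy 1.17.1 gave the exact permutation tests, and pandas 2.3.3 and matplotlib 3.10.9 were used for tables and plots. The scripts were tested on simulated data. Alternatives were RLE size factors, DESeq2 1.42.0, limma 3.58.1 with voom and quality weights, other filters on low counts (none, or 10 counts or more in each library), a single fit of the 9 libraries, a block for the replicate number, calls without the fold limit or without adjustment, and leaving out single libraries. For the lists and for groups that do not overlap, leaving out LFG replicate 3 was chosen after seeing the data.

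The members and lists were chosen with earlier results of these data known. Named genes are the members, genes of the other B cell and plasma cell lists with an unadjusted p under 0.05 or the highest mean FPKM, and the 10 genes most like the members. The result of 1 gene under this rule was left out of the text. Cell type markers came from general knowledge. The chi-square per gene between replicates was 27.0 or more, so none was a repeat. Deviations of same-numbered libraries of hADMSCs-Exo and LFG were weakly correlated (r = 0.107, 0.313 and 0.191 across genes). This alone does not establish pairs, no other reason for pairs was found, and the main fits used none. With REG the signs were mixed, as hADMSCs-Exo gave 0.143, -0.01 and 0.03 with it and LFG gave 0.423, -0.207 and 0.315.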

Additional observations from a re-analysis of the deposited data

How the results depend on the processing

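No member was called under any alternative with an adjusted p. With an unadjusted p and all libraries, 1 member, Cd79a, passed in hADMSCs-Exo against LFG and 1, again Cd79a, in REG against LFG. Its direction against LFG held in every alternative that could be run, but with at least 10 counts required in every library it could not be tested. With the replicate block, the log2 fold change of Cd79a was 1.98 (hADMSCs-Exo) and 2.05 (REG) against LFG, and the block changed no call. Reversals occurred for values close to 0 or with an SE as large as the value. With limma and voom, hADMSCs-Exo against REG gave 0.0025 for Cd79a and -0.033 for Ms4a1, hADMSCs-Exo against LFG gave -0.23 for Cd22 and -0.0088 for Jchain, and REG against LFG gave -0.47 for Blk. With the block, hADMSCs-Exo against REG gave 0.0087 for Cd79a and 0.052 for Cd79b, and REG against LFG gave 0.40 for Cd22 and -0.065 for Blk. For Cd22 in REG against LFG, DESeq2 gave 0.0035 and no filter 0.027. The cause was not tested. With 1 library left out, values in hADMSCs-Exo against REG ranged from -0.51 to 0.24 for Cd79a, -0.45 to 0.38 for Cd79b, -0.085 to 0.74 for Ms4a1, -0.16 to 0.26 for Cd22 and -1.07 to 0.43 for Jchain. In hADMSCs-Exo against LFG they ranged from -0.44 to 0.68 for Cd22 and -0.25 to 1.26 for Jchain, and in REG against LFG from -0.48 to 0.63 for Cd22 and -0.35 to 0.41 for Blk. Values that 1 library moved by over 1.5 times without a change of sign were those of Cd79b (0.31 without REG replicate 2 to 1.16 without REG replicate 3), Ms4a1 (0.40 without REG replicate 1 to 1.03) and Jchain (0.45 without LFG replicate 3 to 1.35 without LFG replicate 2, where its unadjusted p by edgeR was 0.0343) in REG against LFG, Ms4a1 in hADMSCs-Exo against LFG (0.66 without hADMSCs-Exo replicate 1 to 1.49), and Blk in hADMSCs-Exo against REG (0.14 without REG replicate 2 to 0.93 without REG replicate 3) and against LFG (0.32 without hADMSCs-Exo replicate 2 to 0.66). The median of the members ranged from 0.44 (without LFG replicate 3) to 0.93 in hADMSCs-Exo against LFG, from 0.52 to 0.92 in REG against LFG and from -0.089 (without REG replicate 3) to 0.25 (without REG replicate 1) in hADMSCs-Exo against REG. With limma and voom the medians against LFG were 0.41 in hADMSCs-Exo and 0.41 in REG. Over all genes, edgeR called 1, 0 and 0 in hADMSCs-Exo against REG, hADMSCs-Exo against LFG and REG against LFG, DESeq2 67, 60 and 240, and limma with voom 3, 1 and 1285. Low counts in all libraries limit Ms4a1, Blk and Mzb1.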
